A study of Mus musculus with 12 samples.

Results

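The genes described here encode the coagulation, fibrinolysis and complement proteins that hepatocytes secrete into plasma, with the serpins left out. They are a list of 39 named symbols, chosen by function, of 17007 symbols listed in the deposited RNA-seq values. By role they are 14 procoagulant genes, 3 genes of anticoagulant proteins, 2 genes of the fibrinolytic system, 3 other plasma factors, 4 genes of the lectin pathway, 3 of the classical pathway, *C3* and *Cfb*, 2 complement inhibitors and 6 genes of the terminal pathway. Bulk RNA from 12 mice was sequenced in 4 groups of 3. Normal livers came from wild-type C57BL/6 mice. The 9 other libraries came from c-MYC/MCL1/RictorKOTsc2KO liver tumors of mice given vehicle, MLN0128 or everolimus, so by the labels every tumor group shares the same oncogenes and deletions. These tumors were raised by hydrodynamic tail vein injection of plasmids for c-MYC, MCL1 and Cre into mice with floxed *Rictor* and *Tsc2* alleles, and Cre came from a plasmid under a CMV promoter and not from a hepatocyte promoter. MLN0128, which blocks the kinase of mTOR in both of its complexes, and everolimus, a rapamycin analog acting on mTORC1, were by the labels each given by gavage at 1 mg/kg per day on 6 days a week for 3 weeks from day 6 after injection, with sacrifice at 3.7 weeks. The study's own account of the sequenced tumors instead speaks of 3 days of drug, so the length of treatment behind every drug comparison here is uncertain. The mice of a group are separate animals as far as the labels say, and no injection or gavage is given for the normal livers, so tumor growth, injection, floxed background and gavage cannot be told apart in a comparison with them.

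Coagulation factors circulate as inactive zymogens that cut one another in sequence until thrombin turns fibrinogen into fibrin, and vitamin K dependent proteins such as protein C hold that chain in check. Complement is a second chain of plasma proteases, started by antibody (classical pathway), by sugars on microbes (lectin pathway) or on surfaces directly (alternative pathway), which meets at *C3* and ends in a pore built from C5 to *C9*. The hepatocyte is the main source of nearly all of these proteins, and many of their mRNAs, though not all, are among the most abundant of the liver.

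Values are the authors' FPKM, that is fragments per kilobase of transcript scaled to library size, and differences are on the log2(FPKM + 1) scale from 1 limma model of all 12 libraries. A gene was called when treat, limma's test against a change of 1.5-fold, gave a Benjamini-Hochberg adjusted p under 0.05 over the 14397 genes tested, and limma's moderated test without a fold limit is given beside it where it differs. All 39 genes passed the filter on low values. The libraries held 17141751 to 25155170 recovered reads, and the deposited FPKM carried a scaling factor of 0.585 to 0.596 in normal liver against 1.10 to 1.37 in the tumors. The targeted genes were at 1.65 to 2.57 FPKM (*Rictor*) and 4.50 to 5.32 FPKM (*Tsc2*) in normal liver and at 1.05 to 1.5 and 2.01 to 2.31 FPKM with vehicle, over whole genes and not over the floxed exons alone. With MLN0128 *Rictor* was at 1.65 to 2.21 FPKM and *Tsc2* at 2.81 to 3.96 FPKM, and with everolimus at 1.58 to 1.93 and 2.78 to 2.87 FPKM. *Rictor* thus overlapped normal liver in both drug groups, and these levels do not by themselves show the deletion. *Mcl1* was at 50.2 to 53.9 FPKM in normal liver and 143 to 211 FPKM with vehicle. With MLN0128 *Mcl1* was at 461 to 1120 FPKM and with everolimus at 235 to 354 FPKM, both above vehicle without overlap. *Myc* was at 4.01 to 12.2 FPKM in normal liver. With vehicle, MLN0128 and everolimus *Myc* was at 0.807 to 1.62, 0.907 to 1.38 and 0.799 to 3.01 FPKM. The part of plasmid RNA in these values was not tested. MLN0128 replicates 1 and 2 held *Xist* at 191 and 155 FPKM and no reads on 4 Y-linked genes, whereas *Xist* was at or below 0.0699 FPKM in the other 10 libraries, so the MLN0128 group differed from the others in X and Y content as well as in drug.

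The labelled tissue was checked against 8 hepatocyte markers. Their summed level was 83241 to 103448 FPKM in normal liver, 4398 to 6720 under vehicle, 1987 to 4587 with MLN0128 and 3670 to 8473 under everolimus, and none of the 8 was at 0 in any group. Albumin (*Alb*), most of that sum in normal liver but not in the tumors, was at 57200, 66000 and 76600 FPKM in normal liver against 1780, 953 and 1840 FPKM with vehicle. The tumors therefore held hepatocyte RNA at a far lower level than normal liver, while the sum of 5 hepatoblast markers, most of it *H19* and *Afp*, went from 2.53 to 4.42 FPKM in normal liver to 5464 to 7376 FPKM with vehicle. In these bulk samples, fewer hepatocytes and less RNA per hepatocyte cannot be told apart.

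Promoter windows were read from RefSeq (GRCm38.p6) for 31 of the 39 genes, from 250 bases before to 50 bases after each start. The letters GTTAAT (either strand, like every motif here) lay in the windows of 11 of the 31 genes (35.5%), against 5.79% of 10217 tested genes with a window and 7.10% of 32851 windows of the same length. FOXA (TGTTTAC) was found for 3 of the 31 genes (9.68%; 3.42% of tested genes) and the CEBP letters TTGCAAT for 2 (6.45%; 1.71%). The CEBP palindrome TTGCGCAA, HNF4 (CAAAGTCCA) and the E-box CACGTG were found for 0 of 31, against 0.323%, 0.666% and 11.8% of tested genes. Matches of different motifs, among them the 2 CEBP forms, can share bases, and such overlaps were not counted. The genes with and without the letters GTTAAT did not stand apart in the tumors: the median log2 difference between vehicle-treated tumors and normal liver was -2.92 in the 11 and -2.94 in the 20 others. A match is a description of these letters and not a site.

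The 250 bases before the start are shown for the 3 fibrinogen chains and for *C8a* and *C8b*, which are neighbours that both fell, with GTTAAT or its reverse complement in capitals. They begin 43 bases before the start in *Fga*, 29 in *Fgb*, 107 in *C8a* and 206 in *C8b*, and *Fgg* held none.
Fga (chr3:83025903-83026152, plus strand): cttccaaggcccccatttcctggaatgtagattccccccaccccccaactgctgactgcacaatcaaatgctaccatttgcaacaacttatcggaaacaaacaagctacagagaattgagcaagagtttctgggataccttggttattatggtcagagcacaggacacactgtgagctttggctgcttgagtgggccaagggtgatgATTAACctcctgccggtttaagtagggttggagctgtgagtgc
Fgb (chr3:83049864-83050113, minus strand): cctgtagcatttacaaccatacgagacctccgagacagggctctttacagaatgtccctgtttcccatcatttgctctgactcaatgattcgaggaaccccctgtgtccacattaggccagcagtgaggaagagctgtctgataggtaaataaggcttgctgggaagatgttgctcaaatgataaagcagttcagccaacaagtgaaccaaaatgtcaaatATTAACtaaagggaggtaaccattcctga
Fgg (chr3:83007474-83007723, plus strand): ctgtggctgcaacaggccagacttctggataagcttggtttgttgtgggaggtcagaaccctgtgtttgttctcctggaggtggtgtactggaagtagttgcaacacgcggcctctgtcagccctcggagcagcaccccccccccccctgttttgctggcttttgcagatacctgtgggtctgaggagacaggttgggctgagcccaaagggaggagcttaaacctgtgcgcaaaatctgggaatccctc
C8a (chr4:104876399-104876648, minus strand): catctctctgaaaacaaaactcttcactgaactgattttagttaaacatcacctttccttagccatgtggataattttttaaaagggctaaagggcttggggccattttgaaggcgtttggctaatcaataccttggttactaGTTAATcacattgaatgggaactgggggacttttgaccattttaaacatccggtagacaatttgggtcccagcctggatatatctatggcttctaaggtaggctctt
C8b (chr4:104766067-104766316, plus strand): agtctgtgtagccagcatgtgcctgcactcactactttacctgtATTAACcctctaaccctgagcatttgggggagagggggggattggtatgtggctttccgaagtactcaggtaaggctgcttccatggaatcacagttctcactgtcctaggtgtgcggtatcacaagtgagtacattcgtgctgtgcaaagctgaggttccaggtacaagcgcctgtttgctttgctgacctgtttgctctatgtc

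The same stretch is shown for *Mbl1* and *Mbl2*, which encode the mannose-binding lectins and whose levels parted in the tumors, and for *Pros1*, which did not fall. Capitals in the first 2 mark the longest run that they share, 13 bases, at -23 to -11 in *Mbl1* and -57 to -45 in *Mbl2*. *Pros1* held none of the motifs searched.
Mbl1 (chr14:41151206-41151455, plus strand): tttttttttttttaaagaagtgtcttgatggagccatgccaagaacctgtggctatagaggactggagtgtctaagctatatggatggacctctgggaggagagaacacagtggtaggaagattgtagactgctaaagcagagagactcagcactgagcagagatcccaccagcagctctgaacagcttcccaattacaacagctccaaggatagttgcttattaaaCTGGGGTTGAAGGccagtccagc
Mbl2 (chr19:30232678-30232927, plus strand): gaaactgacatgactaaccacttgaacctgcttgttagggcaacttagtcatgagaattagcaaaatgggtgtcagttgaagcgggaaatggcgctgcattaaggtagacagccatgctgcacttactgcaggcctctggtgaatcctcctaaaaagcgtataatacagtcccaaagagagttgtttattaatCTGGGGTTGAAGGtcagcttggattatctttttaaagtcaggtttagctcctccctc
Pros1 (chr16:62854057-62854306, plus strand): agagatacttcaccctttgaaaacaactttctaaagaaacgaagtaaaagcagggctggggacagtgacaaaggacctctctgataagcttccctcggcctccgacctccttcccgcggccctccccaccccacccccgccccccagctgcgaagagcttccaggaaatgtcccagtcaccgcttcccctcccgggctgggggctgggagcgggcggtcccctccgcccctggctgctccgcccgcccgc

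In vehicle-treated tumors 38 of the 39 genes fell below normal liver by the treat test, and in all 38 every tumor lay below every normal liver. Of all tested genes, 16.9% were called lower and 35.1% lay below without overlap. The exception was *Pros1*. The median log2 difference of the 39 genes was -2.75, against 0.06 for all tested genes. Their summed level was 21428 ± 1601 FPKM (SD, n = 3) in normal liver, 2998 ± 344 with vehicle, 3036 ± 725 with MLN0128 and 3205 ± 814 with everolimus, or 2.77%, 0.891%, 1.05% and 0.971% of all FPKM. The fall was far from even: 30 of the 39 genes fell by more than 2 on the log2 scale, 17 by more than 3 and 6 by more than 5.

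**Figure D1:**
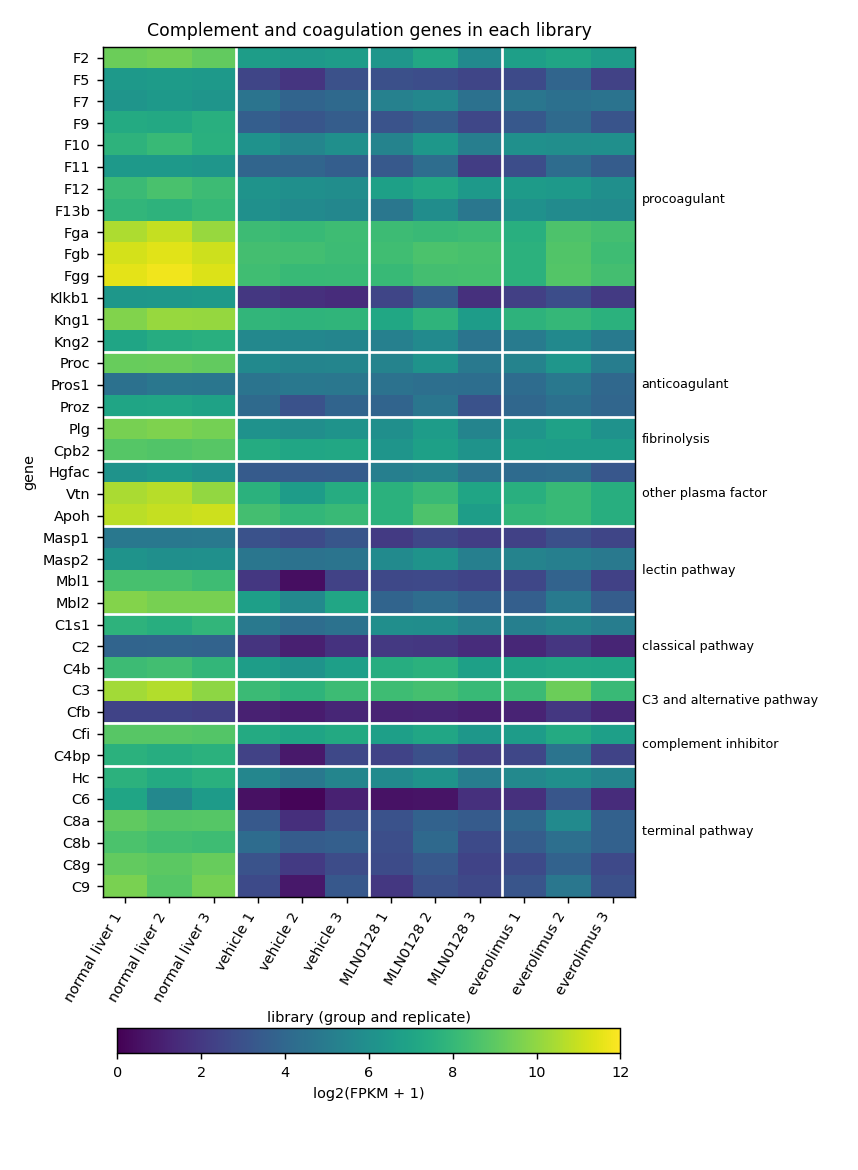
Level of each of the 39 genes in each of the 12 libraries, as log2(FPKM + 1) in colour; rows are genes grouped by role, columns are libraries, and white lines part the groups. The 3 normal livers are brighter than the 9 tumors in nearly every row, and Pros1 and, with MLN0128, Masp2 are the rows that overlap.

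The size of the fall depended on the scaling between libraries. The count of 38 lower and 0 higher became 30 and 0 with plain library totals, 29 and 0 with quantile normalization, and 23 and 1 with libraries rescaled to the same FPKM sum, the 1 being *Pros1* at 1.22. The median of all tested genes then shifted from 0.06 to 0.62 with plain totals and to 0.80 with the same FPKM sum. Relative to that median the 39 genes stood at -2.80 as deposited, -2.45 with plain totals, -2.37 with the same FPKM sum and -1.99 with quantile normalization. Of the 38 genes called lower, each kept a negative difference with the same FPKM sum, but 15 missed the threshold there: *F7*, *F10*, *F11*, *F13b*, *Fga*, *Kng1*, *Kng2*, *Cpb2*, *Masp1*, *Masp2*, *C4b*, *C3*, *Cfb*, *Cfi* and *Hc*.

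**Figure D2:**
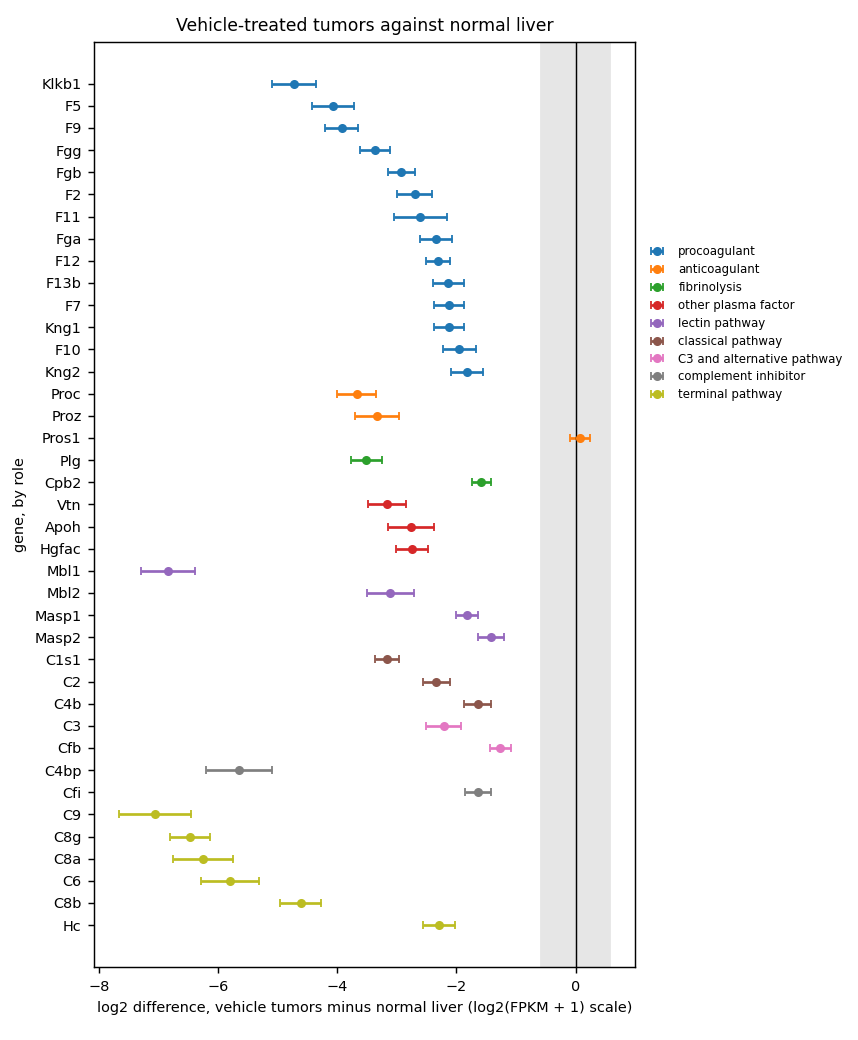
Log2 difference between vehicle-treated tumors and normal liver (3 libraries each) for the 39 genes, sorted within each role; points are model estimates, bars are ± 1 standard error, and the grey band marks changes under 1.5-fold. C9, Mbl1, C8g, C8a, C6 and C4bp lie furthest to the left, and Pros1 is the gene within the band.

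The terminal pathway, whose proteins form the membrane attack complex, fell furthest, with a median log2 difference of -6.03 over its 6 genes. *C9*, which encodes the subunit that polymerises into the pore, was at 771, 459 and 728 FPKM in normal liver against 5.42, 0.705 and 8.88 FPKM with vehicle, a difference of -7.06 (SE 0.61, adjusted p = 3.26e-06 in the treat test). *C8a* was at 528, 440 and 455 FPKM in normal liver against 9.06, 2.02 and 6.81 FPKM with vehicle (-6.26). *C8g*, the lipocalin chain of C8, was at 554, 497 and 596 FPKM in normal liver against 7.31, 3.11 and 5.81 FPKM with vehicle (-6.48). In each of these genes every tumor lay far below the lowest normal liver. *C6*, which binds C5b, was at 130, 47.8 and 96.4 FPKM in normal liver against 0.472, 0.12 and 1.15 FPKM with vehicle (-5.81), and its tumor values rest on 36, 9 and 95 recovered reads. *C8b* went from 389, 327 and 304 FPKM to 18.0, 10.2 and 11.4 FPKM (-4.62). The exception in this role was *Hc*, the mouse gene of C5, at 206, 162 and 197 FPKM in normal liver against 44.3, 27.1 and 43.6 FPKM with vehicle (-2.29). Its difference was smaller than that of each of the other 5 genes under every alternative that was run.

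In the lectin pathway the 2 mannose-binding lectins fell by very different amounts. *Mbl1* was at 367, 368 and 304 FPKM in normal liver against 2.82, 0.363 and 4.16 FPKM with vehicle, a difference of -6.85 (SE 0.45, adjusted p = 4.17e-07 by treat), and its lowest value stood on 12 reads. *Mbl2* was at 865, 737 and 753 FPKM in normal liver against 108, 48.9 and 137 FPKM with vehicle (-3.11, SE 0.39, adjusted p = 0.000148). The proteases that these lectins activate changed less. *Masp1* went from 27.4, 27.2 and 27.5 FPKM to 7.21, 5.75 and 8.36 FPKM (-1.82) and *Masp2* from 70.5, 61.7 and 63.2 FPKM to 25.5, 22.2 and 23.5 FPKM (-1.42). Of the exon bases of *Masp2*, 54.9% lie under *Tardbp* on the opposite strand, and whether the counting used strand was not given in the sources used here; *Tardbp* stood at 15.5 to 18.3 FPKM in normal liver and at 30.5 to 37.6 FPKM with vehicle, and its part in the *Masp2* values was not tested.

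Among the early classical and alternative components, *C1s1*, a protease of the first complex, went from 217, 183 and 236 FPKM in normal liver to 28.2, 18.6 and 22.0 FPKM with vehicle (-3.17, SE 0.21, adjusted p = 9.10e-07 by treat). *C4b*, whose product is part of the *C3* convertase of the classical and lectin pathways, went from 301, 330 and 249 FPKM to 101, 71.8 and 109 FPKM (-1.65). *C3*, on which all pathways meet, went from 1280, 1570 and 993 FPKM to 290, 226 and 302 FPKM (-2.21). These 3 genes kept between 10.8% (*C1s1*) and 32.0% (*C4b*) of the mean normal level. *C2* was lower by 2.34 and *Cfb* by 1.26 on the log2 scale, and *Cfb* was the least abundant of the 39 genes in normal liver, at 3.77 to 4.30 FPKM. *Cfb* and *C2* lie 85 bases apart on chromosome 17, and 79.5% and 42.8% of their exon bases are shared on the same strand with the read-through model *Gm20547*, so their reads cannot be assigned with certainty. For *C4b* and *C4a* 35.2% of 50-base windows are identical, and for *C1s1* and *C1s2* 24.3%, so these values are uncertain to that extent too.

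The 2 inhibitors of complement parted. *C4bp*, the binding protein that dissolves the *C4b* convertase, was at 201, 175 and 202 FPKM in normal liver against 4.23, 0.782 and 5.12 FPKM with vehicle (-5.65, SE 0.55, adjusted p = 1.00e-05 by treat). *Cfi*, the protease that cuts C3b and *C4b*, was at 464, 473 and 444 FPKM in normal liver against 158, 128 and 157 FPKM with vehicle (-1.64). Mean *C4bp* therefore stood at 1.75% of its normal level and mean *Cfi* at 32.1%.

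All 14 procoagulant genes fell, with log2 differences from -4.73 to -1.82 and a median of -2.48. The largest was that of *Klkb1* (prekallikrein, which starts the contact pathway with factor XII), at 79.8, 84.2 and 92.1 FPKM in normal liver against 2.87, 2.13 and 1.83 FPKM with vehicle (-4.73, SE 0.36, adjusted p = 1.86e-06 by treat). *F5*, the cofactor that speeds the making of thrombin, went from 87.1, 95.6 and 87.2 FPKM to 4.62, 2.56 and 6.75 FPKM (-4.08), and *F9*, the factor missing in haemophilia B, from 162, 149 and 187 FPKM to 11.2, 8.21 and 10.7 FPKM (-3.92). In both genes the tumors lay far below normal liver, with no overlap. Prothrombin (*F2*) went from 633, 686 and 556 FPKM to 103, 85.1 and 97.8 FPKM (-2.7). The proteases of the extrinsic and common paths, *F7* and *F10*, fell by 2.13 and 1.95. The contact factors *F11* and *F12* fell by 2.61 and 2.31, and *F13b*, the carrier chain of the clot-stabilising transglutaminase, fell by 2.14. The kininogens *Kng1* and *Kng2*, which share 18.0% and 18.2% of their 50-base windows, fell by 2.13 and 1.82. For *Klkb1*, 43.2% of the exon bases are shared with the model *Gm45753*.

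The 3 fibrinogen chains were the most abundant procoagulant genes and made up 32.5% of the summed level of the 39 genes in normal liver and 30.1% with vehicle. *Fga* was at 1490, 1980 and 1130 FPKM in normal liver against 300, 270 and 311 FPKM with vehicle (-2.35). *Fgb* was at 2370, 2810 and 2190 FPKM and then 341, 327 and 297 FPKM (-2.92), and *Fgg* at 2910, 3380 and 2640 FPKM and then 315, 269 and 278 FPKM (-3.36, SE 0.25, adjusted p = 2.18e-06 by treat). In normal liver the order of mean levels was *Fgg*, *Fgb* and *Fga*, and in vehicle-treated tumors the 3 chains stood within 269 to 341 FPKM.

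Among anticoagulant genes *Proc*, the zymogen of protein C, went from 601, 614 and 552 FPKM in normal liver to 50.6, 42.0 and 43.1 FPKM with vehicle (-3.68) and *Proz*, the cofactor that helps block factor Xa, from 130, 135 and 121 FPKM to 16.5, 7.25 and 13.6 FPKM (-3.34). *Pros1*, the cofactor of protein C, was at 21.3, 25.8 and 25.6 FPKM in normal liver against 23.4, 26.7 and 26.4 FPKM with vehicle. The 2 groups of *Pros1* overlapped, with a difference of 0.07 (SE 0.17, adjusted p = 0.720 in the moderated test) that lay at 1.22 after rescaling to the same FPKM sum. Of the fibrinolytic genes, plasminogen (*Plg*) fell by 3.51, from 728 to 828 FPKM in normal liver to 59.3 to 70.9 FPKM with vehicle. *Cpb2*, which encodes the carboxypeptidase that slows fibrinolysis, fell by 1.58, from 424 to 469 FPKM to 138 to 166 FPKM. *Vtn* (vitronectin) fell by 3.17, *Apoh* (beta-2 glycoprotein I) by 2.77 and *Hgfac*, the protease that activates hepatocyte growth factor, by 2.75, from 65.5 to 82.4 FPKM in normal liver to 9.75 to 10.1 FPKM with vehicle.

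Ratios of 2 genes within a library do not depend on the scaling between libraries, and several pairs that act together or lie side by side shifted. The pairs were chosen after values had been seen, more were computed than are shown, and with 3 libraries a group no test is given. *C3* over *Cfb* overlapped between normal liver (263 to 365) and vehicle (214 to 264) and lay below normal liver with both drugs. *Mbl2* over *Mbl1* was 2.0 to 2.48 in normal liver and 32.9 to 135 with vehicle. The value of 135 was vehicle replicate 2, where *Mbl1* rested on 12 reads, and replicates 1 and 3 stood at 38.3 and 32.9. The ratio was 2.7 to 3.54 with MLN0128 and 2.15 to 2.61 with everolimus. Its everolimus range overlapped that of normal liver, and its MLN0128 range lay just above normal liver. In both drug groups *Mbl2* lay below vehicle, while *Mbl1* was at 4.06 to 13.3 FPKM. The ratio of *Fgg* to *Fga* was 1.71 to 2.34 in normal liver, 0.894 to 1.05 under vehicle, 0.905 to 1.24 with MLN0128 and 0.994 to 1.10 under everolimus. *Fgg* and *Fga* lie 11.03 kb apart on chromosome 3 with no coding gene between them, and *Fgb* follows 6.51 kb further on. All 3 tumor groups lay below normal liver in that ratio and overlapped one another.

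*F11* and *Klkb1*, 4.66 kb apart on chromosome 8, stood at a ratio of 0.861 to 1.07 in normal liver, 4.91 to 6.71 under vehicle, 1.67 to 1.96 with MLN0128 and 1.62 to 3.37 under everolimus. Both drug groups lay between normal liver and vehicle without overlapping either. Of the exon bases of *Klkb1*, 43.2% are shared with the model *Gm45753*, and the part of that overlap in this ratio was not tested. *C8a* over *C8b*, 11.1 kb apart on chromosome 4, was 1.35 to 1.5 in normal liver and 0.198 to 0.597 with vehicle. With MLN0128 it was 0.799 to 1.83 and with everolimus 1.01 to 2.65, in both above vehicle and overlapping normal liver. *Masp1* over *Masp2* was lower in every tumor group, going from 0.389 to 0.441 in normal liver to 0.259 to 0.356 under vehicle. It was 0.0995 to 0.189 with everolimus and 0.0592 to 0.107 with MLN0128, and the drug groups overlapped each other but not vehicle. *Tardbp*, which overlaps 54.9% of the *Masp2* exon bases, was at 15.5 to 18.3 FPKM in normal liver and 30.5 to 37.6 FPKM with vehicle. With MLN0128 *Tardbp* was at 38.9 to 45.7 FPKM and with everolimus at 38.9 to 58.7 FPKM, and its part in this ratio was not tested. *F10* over *F7*, 1.5 kb apart on chromosome 8, was 2.59 to 3.08 in normal liver and 2.91 to 3.87 with vehicle, which overlapped. With MLN0128 the ratio was 1.07 to 1.80, below both. With everolimus it was 2.58 to 2.87, just below vehicle and overlapping normal liver. *Hc* over *C9* was 0.267 to 0.353 in normal liver and 2.42 to 38.4 over the 9 tumors. The value of 38.4 was vehicle replicate 2, where *C9* rested on 38 reads.

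**Figure D3:**
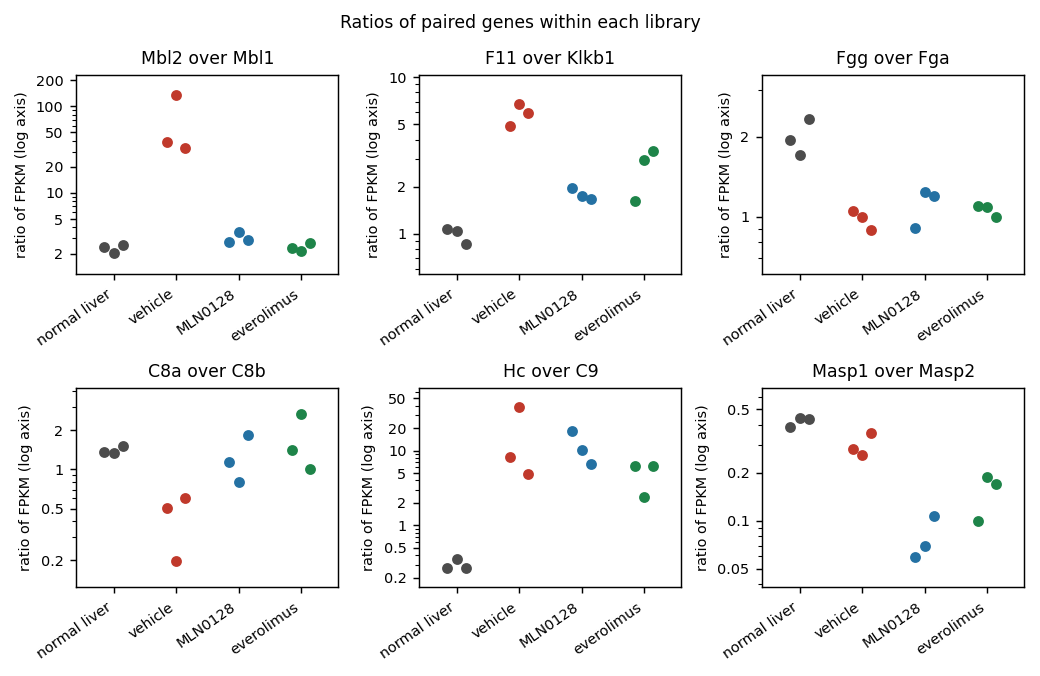
Ratio of the FPKM of 2 genes within each library for 6 pairs, on log axes; each point is 1 library, in 4 groups of 3. Mbl2 over Mbl1 is high in the 3 vehicle-treated tumors alone (32.9 to 135) and stays at or under 3.54 in the other 9 libraries. The highest points of Mbl2 over Mbl1 and of Hc over C9 are both vehicle replicate 2, where Mbl1 and C9 rest on 12 and 38 reads. Fgg over Fga, F11 over Klkb1, Hc over C9 and Masp1 over Masp2 differ between normal liver and all tumors without overlap.

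MLN0128 changed few of the genes against vehicle. By the treat test 1 gene was called lower and 0 higher, beside 1.65% and 0.479% of all tested genes (at an unadjusted treat p under 0.05, 1 and 3 of the 39), and the median difference of the 39 genes was 0.16 against -0.01 for all genes. By the moderated test 3 fell and 6 rose, which is 9 of 39, beside 17.1% of all tested genes lower and 14.9% higher, a share under the background for genes that fell and near it for genes that rose. The called gene was *Mbl2*, at 13.8, 18.7 and 12.5 FPKM against 108, 48.9 and 137 FPKM with vehicle, a difference of -2.53 (SE 0.39, adjusted p = 0.0170 by treat). Every MLN0128 tumor lay below every vehicle-treated tumor. The call was lost without vehicle replicate 1 (adjusted p = 0.0764), vehicle replicate 3 (0.0830) or MLN0128 replicate 1 (0.0788) and with only the 2 groups in the model (0.0542), with differences between -2.96 and -2.22 over all libraries left out. The other 2 genes that fell by the moderated test were *Cpb2*, at 75.1, 111 and 71.4 FPKM (-0.82, adjusted p = 0.00316), and *Masp1*, at 3.11, 4.90 and 3.75 FPKM (-0.72, adjusted p = 0.0112). Both lay below vehicle without overlap. Over all 39 genes 5 lay below vehicle and 6 above without overlap, beside 23.4% and 22.1% of all tested genes, so no more than the background. Without MLN0128 replicate 2 the moderated test gave 9 genes lower and 4 higher in place of 3 and 6, and without both replicates 1 and 2, with 1 library left, it gave 7 and 0.

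*Hgfac* rose furthest with MLN0128, to 35.6, 40.0 and 22.0 FPKM from 9.91, 9.75 and 10.1 FPKM with vehicle, a difference of 1.58 (SE 0.27, adjusted p = 0.00143 by the moderated test, 0.0653 by treat). *C1s1* stood at 59.5, 58.9 and 37.5 FPKM (1.14, adjusted p = 0.00211) and *Masp2* at 52.5, 70.2 and 34.9 FPKM (1.06, adjusted p = 0.00343), both above every vehicle-treated tumor. *Tardbp*, which overlaps *Masp2*, was at 38.9 to 45.7 FPKM with MLN0128. The other genes that rose were *F7*, at 37.6, 45.3 and 21 FPKM (0.89, adjusted p = 0.0195), *F12*, at 112, 145 and 87.1 FPKM (0.82, adjusted p = 0.0111), and *C4b*, at 178, 201 and 113 FPKM (0.78, adjusted p = 0.0196). *F7* was the only one of these 6 that overlapped vehicle. In all 6 the third library, the one without *Xist* RNA, was the lowest of the MLN0128 group, and without replicates 1 and 2 none of the 6 passed the moderated test. That fit leaves 1 MLN0128 library, assumed to vary like the other groups, and that library was the lowest of its group for 32 of the 39 genes, so a lost call there does not separate X and Y content from fewer samples. The values were differences of 1.08 for *Hgfac*, 0.71 for *C1s1*, 0.54 for *Masp2*, 0.26 for *F7*, 0.45 for *F12* and 0.29 for *C4b* and adjusted p from 0.0677 to 0.537. *Masp1* also missed the threshold there, at -0.76 (adjusted p = 0.0713), and the part of X and Y content in these values was not tested. *F7* and *C4b* lost the call also without vehicle replicate 2 (adjusted p = 0.0703 and 0.0741), without MLN0128 replicate 1 (0.0751 and 0.0761) and without MLN0128 replicate 2 (0.0689 and 0.0662). Both lost it too with only the 2 groups in the model (0.0753 and 0.0650), and *F7* without vehicle replicate 3 (0.0633). *Masp1* lost it without vehicle replicate 3 (0.0510) or MLN0128 replicate 1 (0.0532) and with libraries rescaled to the same FPKM sum (0.0803).

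**Figure D4:**
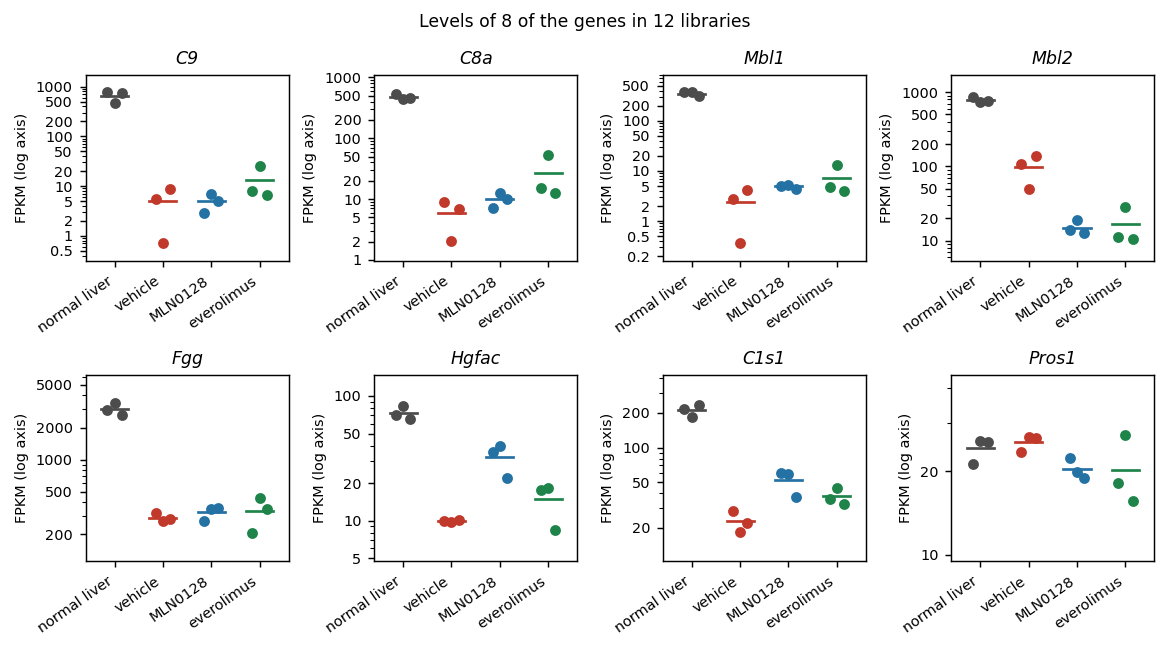
FPKM of 8 of the genes on log axes; each point is 1 library and each short line the mean of a group of 3. Mbl2 steps down again in both drug groups, from 48.9 to 137 FPKM with vehicle to 10.6 to 28.6 FPKM, Hgfac and C1s1 step up with MLN0128, and Pros1 stays between 15.6 and 27.1 FPKM throughout.

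Everolimus gave 1 gene called lower and 0 higher against vehicle by the treat test, beside 0.570% and 0.0347% of all tested genes (at an unadjusted treat p under 0.05, 1 and 2 of the 39). By the moderated test 2 of 39 fell and 1 rose, beside 6.05% and 3.78% of all tested genes, again no more than the background, and the median difference was 0.34 against 0.03. The gene called by treat was again *Mbl2*, at 11.3, 28.6 and 10.6 FPKM, a difference of -2.49 (SE 0.39, adjusted p = 0.0376), with no overlap with vehicle. Over all 39 genes 2 lay below vehicle and 6 above without overlap, beside 14.8% and 17.6% of all tested genes. The MLN0128 and everolimus comparisons share their 3 vehicle libraries. That treat call was fragile: it was lost when any of 9 of the 12 libraries was left out, namely each normal liver, vehicle replicates 1 and 3, MLN0128 replicates 1 and 3 and everolimus replicates 1 and 3, with adjusted p from 0.0501 to 0.208, at differences of -2.93 to -2.19 over all libraries left out. By the moderated test *Mbl2* stayed below 0.05 in every alternative (highest adjusted p 0.0343).

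*Cpb2* was at 103, 99.1 and 98.9 FPKM with everolimus (-0.57, adjusted p = 0.0473 by the moderated test) and below vehicle without overlap. *C8a* was the gene that rose, at 15.1, 52.7 and 12.4 FPKM (1.87, SE 0.51, adjusted p = 0.0402), with all 3 tumors above vehicle. Both calls lay close to the threshold and each was lost under 11 of 22 alternatives. For *Cpb2* these included leaving out any single library other than MLN0128 replicates 2 and 3 (adjusted p up to 0.154). For *C8a* they included leaving out any normal liver, vehicle replicate 2 or 3, MLN0128 replicate 1 or everolimus replicate 1 or 2 (adjusted p up to 0.115), and its difference was 1.25 without everolimus replicate 2. *C6* at 2.14, 8.38 and 1.88 FPKM (1.53, adjusted p = 0.0704) and *C1s1* at 35.7, 44.6 and 32.5 FPKM (0.70, adjusted p = 0.0550) also lay above every vehicle-treated tumor but missed the threshold. *C9*, at 7.97, 25.7 and 6.67 FPKM, and *C4bp*, at 4.91, 23.5 and 4.34 FPKM, overlapped vehicle. In *C6*, *C8a*, *C9* and *C4bp* everolimus replicate 2 was by far the highest of its group.

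**Figure D5:**
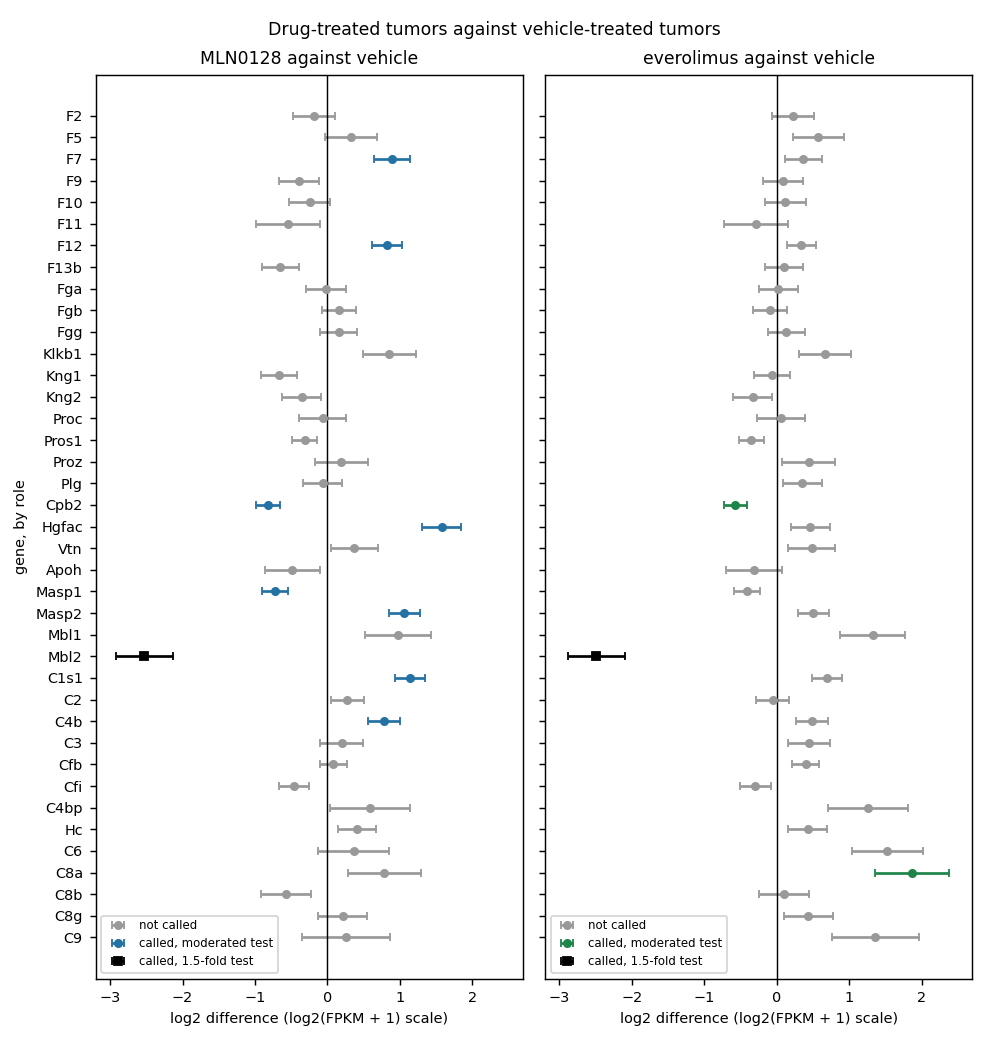
Log2 difference of MLN0128-treated (left) and everolimus-treated (right) tumors from vehicle-treated tumors for the 39 genes, 3 libraries a group; points are model estimates, bars are ± 1 standard error, and the vehicle libraries are shared by both panels. Mbl2 (black squares) lies near -2.5 in both panels, blue and green mark genes called by the moderated test alone, and most other genes lie within 1 of 0.

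Between the drugs, limma gave 0 genes called either way by treat, beside 0.0347% of all tested genes lower and 0.00695% higher with MLN0128. By the moderated test 1 gene differed, beside 5.54% lower and 3.99% higher among all tested genes: *Hgfac*, at 22.0 to 40.0 FPKM with MLN0128 and 8.46 to 18.4 FPKM with everolimus (1.12, SE 0.27, adjusted p = 0.0272). At an unadjusted p under 0.05 of the moderated test, 3 genes were lower and 3 higher with MLN0128. The *Hgfac* call was lost without MLN0128 replicate 1 (adjusted p = 0.103), MLN0128 replicate 2 (0.0694) or everolimus replicate 3 (0.0898). It was also lost with only the 2 groups in the model (0.123). Without MLN0128 replicate 2 the moderated test gave 4 genes lower and 0 higher, and without MLN0128 replicate 3 it gave 0 and 3. For *Mbl2* the difference between the drugs was -0.03 (SE 0.39), which leaves room for a difference of either sign.

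Both drug groups stayed far below normal liver. With MLN0128 35 of the 39 genes were called lower (20.2% of all tested genes), and with everolimus 36 (18.4%), with medians of -2.80 and -2.47. These counts fell to 26 and 30 with plain library totals, 25 and 25 with quantile normalization and 24 and 24 with the same FPKM sum, where the medians were -1.36 and -1.39 beside 0.97 and 0.76 for all tested genes. By the moderated test 37 were lower and 0 higher with MLN0128 (35.5% and 37.1% of all tested genes) and 38 and 0 with everolimus (34.3% and 35.9%). The genes not called with MLN0128 were *Pros1*, *Masp2*, *Hgfac* and *C4b*, of which *Masp2* (52.5, 70.2 and 34.9 FPKM against 61.7 to 70.5 in normal liver) and *Pros1* overlapped normal liver. With everolimus they were *Pros1*, *Masp2* and *Cfb*, and *Pros1* alone overlapped. *F7* with MLN0128 (-1.24) missed the threshold without any 1 of the normal livers or MLN0128 replicate 3 (adjusted p up to 0.135), and *C4b* with everolimus (-1.16) without normal liver 1 or 2 or any 1 of the everolimus tumors (up to 0.109). *C9* kept differences of -6.80 and -5.70 from normal liver and *Mbl2* stood at -5.63 and -5.60, below its difference of -3.11 with vehicle.

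Genes outside the list that belong to the same systems were counted for comparison. Of 21 other complement genes tested, 15 fell and 0 rose in vehicle-treated tumors against normal liver by treat, with a median of -2.22, among them *Cfhr3* (-4.78) and the collectin gene *Colec10* (-4.07). *C1ra*, which pairs with *C1s1* in the first complex, fell by 2.22, and *C4a* by 2.31. Of 19 other coagulation and fibrinolysis genes, many of them expressed by cells other than hepatocytes, 5 fell and 4 rose, with a median of -0.03; *Anxa2* (3.05) and *Plaur* (2.92), an annexin that binds plasminogen and the urokinase receptor, rose, and *Tfpi2* (-2.22) and *F8* (-1.88), which encodes the cofactor of factor IX, fell. In the vitamin K cycle, on which factors II, VII, IX and X depend, *Vkorc1*, the reductase, was the 1 gene of 6 called lower by treat (by 2.16). By treat 1 gene of the cycle was called higher, and the largest rise among the 6 was 0.93. By the moderated test 4 of the 6 were lower and 1 higher. *Ggcx*, the carboxylase, stood 0.76 lower without passing treat (adjusted p = 0.254). Of 25 other plasma proteins of hepatocytes, 25 fell, with a median of -2.87, led by *Pon1* (-7.95), *Alb* (-5.50), *Itih1* (-5.49) and *Hrg* (-5.41), beside the median of -2.75 of the 39 genes. By treat, acute phase genes numbered 10 lower and 1 higher of 16, the latter *Saa3* (4.04). Of 22 liver transcription factors 14 fell and 0 rose by treat, led by *Dbp* (-4.30), *Nr0b2* (-3.49), *Cebpa* (-2.99) and *Onecut2* (-2.87). By the moderated test 17 of these 22 were lower and 4 higher, and 10 and 3 of the 16 acute phase genes. Of the other complement genes 18 and 0 passed it, and of the other coagulation genes 7 and 6. Among all tested genes the moderated test gave 33.0% lower and 36.0% higher, and treat 16.9% and 15.9%.

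With the drugs, 0 of the 21 other complement genes were called by treat in either direction. By the moderated test 6 fell and 2 rose with MLN0128, beside 17.1% and 14.9% of all tested genes. With everolimus 0 fell and 1 rose, beside 6.05% and 3.78%, so the genes that rose were no more than about the background. *C1ra* was the gene that rose with both, from 23.5, 24.6 and 21.2 FPKM with vehicle to 47.6, 57.5 and 36.8 FPKM with MLN0128 (0.98, adjusted p = 0.00133) and to 52.5, 44.2 and 44.7 FPKM with everolimus (1.00, adjusted p = 0.00431). *C1ra* and *C1s1* encode the paired proteases of the first complement complex, and both lay above vehicle in all 6 drug-treated tumors. The genes that fell with MLN0128 were led by *Clu* (-1.52), *C1qb* (-1.27), *C1qc* (-1.23) and *Fcna* (-1.15), of which the last 3 are macrophage genes. Over 8 Kupffer cell and macrophage markers, none of them at 0 in all 3 libraries of a group, the summed level was 220 to 266 FPKM in normal liver, 60.4 to 96.0 under vehicle, 25.0 to 36.4 with MLN0128 and 46.6 to 146 under everolimus; its part in these differences was not tested. *Ggcx* stood at 20.2, 19.5 and 14.6 FPKM with MLN0128 against 9.91 to 12.4 FPKM with vehicle (0.65, adjusted p = 0.00379). No gene of the vitamin K cycle or of the other coagulation genes was called by treat with either drug. By the moderated test 7 of the 19 other coagulation genes fell and 0 rose with MLN0128, beside 17.1% and 14.9% of all tested genes. Those that fell were led by *F2rl1* (-1.48) and *Anxa2* (-1.42). With everolimus 2 of the 19 fell and 0 rose, beside 6.05% and 3.78%.

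Many of the 39 genes had the same highest or lowest library within a group. Vehicle replicate 2 was the lowest of its group for 32 of the 39 genes, MLN0128 replicate 2 was the highest for 32 and MLN0128 replicate 3 the lowest for 32, and everolimus replicate 2 was the highest for 33. In normal liver no library was lowest or highest for more than 21. The sum of the hepatocyte markers was also lowest or highest in those libraries, with 4398 FPKM in vehicle replicate 2 against 6421 and 6720 in the others, and 8473 FPKM in everolimus replicate 2 against 3670 and 4004 in the others; its part in the spread was not tested.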

How the data were processed

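Bulk RNA of 12 mice, 3 in each of 4 groups, was compared. The authors deposited 1 table of FPKM for all libraries, rounded to 3 significant digits; per the labels the genome build was GRCm38 and reads were checked with FastQC 0.11.7, and the aligner, the counter and the use of strand are not given in the sources used here. From the FPKM steps, whole reads were recovered (tolerance 0.1 reads) and the scaling of each library was read; these served for depth and for 1 alternative. Of 17007 symbols, 14397 reached 0.5 FPKM in 3 or more libraries and were kept, and log2(FPKM + 1) was fitted in limma 3.58.1 (R 4.3.3) with 1 mean per group over all 12 libraries. The pseudocount understates the change of low genes. Calls used treat against 1.5-fold at a Benjamini-Hochberg adjusted p under 0.05, tested on simulated data first. Exon overlaps came from GENCODE M21, and promoters from RefSeq; tables and figures were made with Python 3.11.15, pandas 2.3.3, numpy 2.4.6 and matplotlib 3.10.9. The table held 22 symbols turned into dates, none of them among the 39 genes. All 39 genes are described by role; of each other list up to 4 called genes with the largest difference are named, with C1ra, C4a, Ggcx, Vkorc1 and Alb, and a few genes that this rule names are not reported here. The 39 genes and the lists were chosen with earlier results of these data known. Alternatives changed the pseudocount, filter, scaling, groups in the model, variance trend, replicate block and libraries left out. Depth of 3 reads on a 2 kb transcript, 0.0496 to 0.144 FPKM, limits the lowest values; this covers counting error only.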

Additional observations from a re-analysis of the deposited data

How the results depend on the processing

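The 38 genes called lower with vehicle against normal liver stayed at 38 whichever library was left out. Leaving out 1 library gave 34 to 36 genes lower with MLN0128 and 35 to 36 with everolimus against normal liver, 0 to 1 lower and 0 to 3 higher with MLN0128 against vehicle, and 0 to 1 lower with everolimus against vehicle. With libraries rescaled to the same FPKM sum, 23 genes were lower and 1 higher with vehicle against normal liver, 2 were higher with MLN0128 against normal liver, 2 were higher with MLN0128 against vehicle and 0 were lower with everolimus against vehicle. Some differences from normal liver turned positive under that scaling. Among genes called by treat before or after rescaling, these were Pros1 (1.13), Masp2 (1.06) and F7 (0.17) with MLN0128 and C4b (0.025) with everolimus. Genes called by treat in neither fit are not listed. By the moderated test 3 genes were then higher than normal liver with MLN0128 and 1 with everolimus. Without a fold threshold, the moderated test gave 3 lower and 6 higher with MLN0128 and 2 lower and 1 higher with everolimus against vehicle, and 1 higher between the drugs. Genes higher with MLN0128 against vehicle numbered 1 with a pseudocount of 0.1, 3 with quantile normalization, 1 with plain library totals and 1 with voom on recovered reads. The lower call of Mbl2 fell to 0 genes with only the 2 groups compared, for both drugs, and with MLN0128 replicates 1 and 2 left out, which leaves 1 library in that group; fewer samples carried those fits, and for the scalings the cause was not tested.

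Same-numbered libraries did not deviate together over all tested genes (correlations of -0.29 to 0.15), so no pairing by number was seen. Such a check can miss a shared effect that is small beside the other differences within a group. With the replicate block, 1 gene was called higher with MLN0128 and 0 lower with everolimus against vehicle.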
